A study of Mus musculus with 20 samples.

Results

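The expression of 9 genes, called members here, was described in donor CD8+ effector T cells of mice with acute graft-versus-host disease. Tgfb1, Tgfbr1, Tgfbr2, Smad3, Smad7, Ski and Skil belong to the transforming growth factor beta (TGF-beta) pathway. Rara encodes a retinoic acid receptor (RAR), and Rxra encodes its partner, a retinoid X receptor (RXR). The 9 members were chosen by name, and each was represented by its brightest probe. All 9 of 9 had a probe, out of 20886 genes with a named probe on the array. Only 4 of the 9 (Tgfb1, Tgfbr2, Smad3 and Skil) were bright enough to be tested, out of 8056 tested genes. A gene was tested where its probe lay well above background, by the scanner software's own flag, on at least 4 of the 5 arrays of at least 1 site.

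The cells came from the small intestine, the lung, the liver and the peripheral blood, with 5 arrays per site and 20 in all. Recipients at every site were female C57Bl/6 m-act OVA mice of 8 to 16 weeks, whose CAG-OVA transgene encodes ovalbumin. They were given 11 Gy of total body irradiation and a graft of bone marrow and splenocytes from OT-I mice, whose CD8+ T cells carry 1 transgenic receptor for an ovalbumin peptide. On day 4 the grafted cells were recovered by magnetic positive selection for CD45.1, and their RNA was linearly amplified over 2 rounds and labelled with Cy3. All sites therefore share the transplant, the donor receptor and the transgenic antigen, and blood of transplanted recipients is the comparison, not cells of an untransplanted mouse. No label says which animal an array came from. The p-values therefore cover only the spread among the 5 arrays of a site, which may be technical, and precision is limited by how many arrays there are.

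TGF-beta is secreted in a latent form and, once activated, is bound by the receptor chain TGFBR2, which recruits and activates TGFBR1. The receptor phosphorylates SMAD2 and SMAD3, which join SMAD4 and act on target genes in the nucleus. SMAD7 blocks the receptor, and SKI and SKIL (SnoN) repress Smad-driven transcription. Retinoic acid acts through heterodimers of RAR and RXR nuclear receptors. In the gut, TGF-beta is known for supporting the residence of CD8 T cells, and retinoic acid for imprinting the homing molecules CCR9 and the integrin alpha4beta7.

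Values below are log2 signals minus the 75th percentile of the array, so that 0 is the signal that 75 percent of the probes do not exceed. These are levels of a probe within arrays, and levels of different genes are not compared. In this bulk RNA, fewer cells of a type and less RNA per cell cannot be told apart. The 16 tested CD8 T cell markers of 18 (chains of the antigen receptor, its kinases and other T cell surface proteins) averaged 3.43 to 5.31 per array in small intestine, 4.33 to 4.96 in lung, 4.97 to 5.25 in liver and 4.66 to 5.24 in blood. The labelled cell type was thus present on every array. The lowest arrays for these markers were small intestine 4 (3.43), small intestine 2 (3.65), small intestine 1 (4.31) and lung 4 (4.33). Markers of other cells differed between arrays as well. Alveolar macrophage markers (13 tested of 14) ran from -1.76 to 5.33 in lung and from -2.75 to -1.32 in blood, and 8 of the 14 reached the background flag on 0 of 5 blood arrays. Paneth cell markers (6 tested of 13) ran from -3.08 to 7.05 in small intestine and from -2.77 to -1.27 in blood. The array labelled small intestine 5 held the lowest small intestine value of these Paneth markers, -3.08, and the array labelled liver 5 stood at 4.53, whereas the other 4 liver arrays did not exceed -1.96. These 2 arrays go against their labels in this respect, and results are given with and without them. The median difference of all tested genes was -0.37 for small intestine, -0.33 for lung and 0.05 for liver, each against blood.

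The 2 members measured on the most arrays, Tgfbr2 (20 of 20) and Smad3 (17 of 20), are shown with the 250 bases before their start, since these are the receptor chain and the signal carrier of the pathway whose levels could be followed at every site. The sequences are RefSeq's (GRCm38.p6), 5′ to 3′ on the gene's own strand. Capitals mark the Smad half-site CAGAC, the GC box GGGCGG and the retinoid half-site AGGTCA, each searched on both strands. No match overlapped another.
Tgfbr2, chr9:116175364-116175613, minus strand: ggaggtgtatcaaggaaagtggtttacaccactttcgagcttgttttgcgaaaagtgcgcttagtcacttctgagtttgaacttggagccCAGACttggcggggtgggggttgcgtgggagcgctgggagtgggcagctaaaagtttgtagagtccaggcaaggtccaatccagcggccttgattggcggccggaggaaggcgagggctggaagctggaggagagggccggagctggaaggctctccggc
Smad3, chr9:63757995-63758244, minus strand: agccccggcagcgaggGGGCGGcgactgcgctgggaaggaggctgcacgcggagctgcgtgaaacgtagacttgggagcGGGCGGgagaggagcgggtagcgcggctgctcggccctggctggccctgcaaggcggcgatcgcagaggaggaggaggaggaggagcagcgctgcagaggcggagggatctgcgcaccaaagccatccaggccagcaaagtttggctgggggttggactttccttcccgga
The Tgfbr2 window held 1 Smad half-site, 160 bases before the start, and no GC box. The Smad3 window held 2 GC boxes, 234 and 171 bases before the start, and no Smad half-site. Neither held the retinoid half-site. Over all 32817 windows of 250 bases, 42.2% held the Smad half-site, 32.7% the GC box and 14.0% the retinoid half-site. Of the 9 members, 7 had an entry in the promoter table. A match is a run of letters and says nothing of binding in these cells.

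No member passed the threshold in any comparison. Of the 4 tested members, 0 had an adjusted p under 0.05 (limma, Benjamini-Hochberg over 8056 genes) between small intestine and blood, where 10.9% of all tested genes passed. The count was 0 of 4 between lung and blood (0.819% of all genes), 0 between liver and blood (0%), 0 between small intestine and lung (0.149%), 0 between small intestine and liver (0%) and 0 between lung and liver (0.286%). It was also 0 of 4 in an F-test over the 4 sites (0.559%). At an unadjusted p under 0.05, 1 member was below the threshold between small intestine and blood (Skil), 1 between lung and blood (Smad3), 1 between lung and liver (Smad3) and 0 in the other 3 comparisons and the F-test. The share of all genes at that level was 33.0%, 34.5% and 15.6% in those 3 comparisons, so 1 of 4 is near the general share. A missed threshold does not show that the sites were alike, so the 95% interval of each difference is given.

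**Figure D1:**
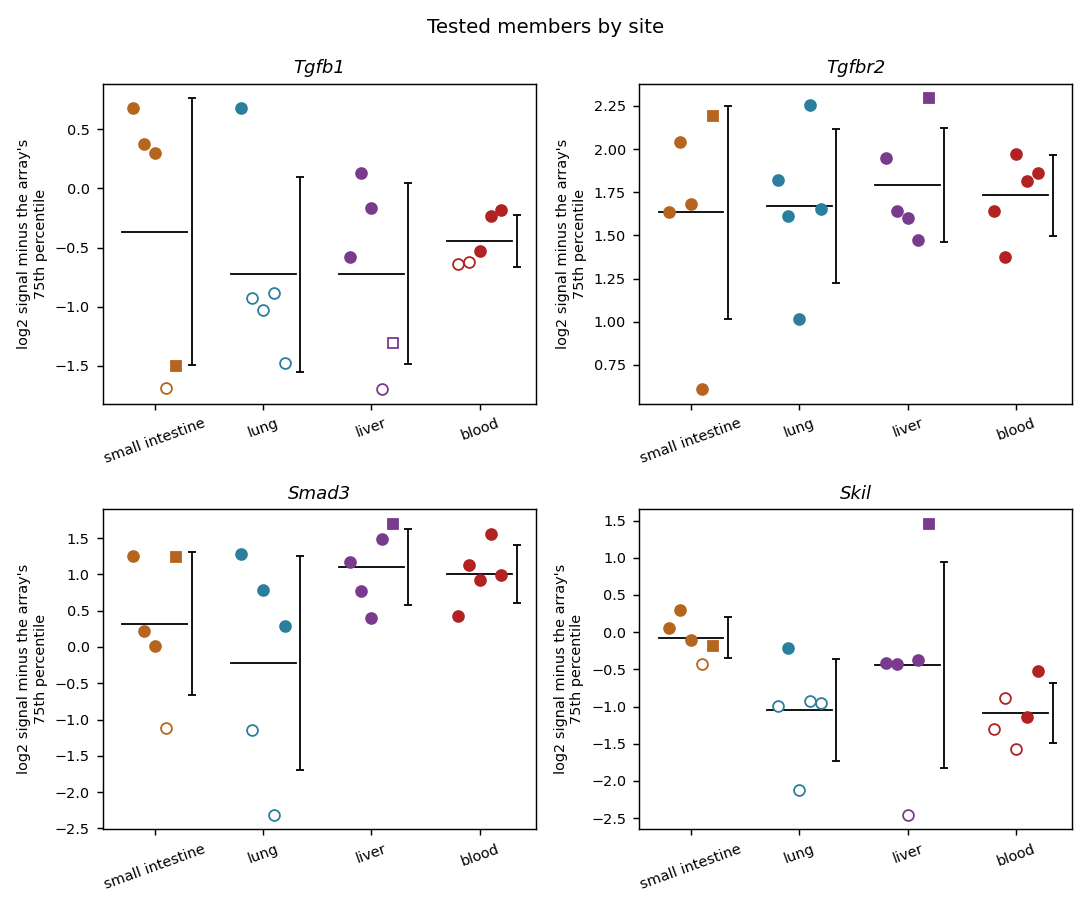
Each panel shows 1 tested member in the 5 arrays of small intestine, lung, liver and blood, as log2 signal minus the array's 75th percentile on the vertical axis. Filled symbols are well above background, open ones are not, squares are the arrays labelled small intestine 5 and liver 5, and lines with bars are the mean and SD of 5 arrays. Tgfbr2 was filled on all 20 arrays, and the 5 small intestine values of Skil lay above the 5 blood values, as for 0.497% of all tested genes.

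Tgfb1, the ligand that T cells themselves can make, was well above background on 11 of 20 arrays, 4 of them in small intestine, 1 in lung, 3 in liver and 3 in blood. Its values were 0.67, 0.38, 0.30, -1.68 and -1.50 in small intestine 1 to 5, 0.68, -0.93, -1.03, -0.88 and -1.48 in lung, -0.58, 0.13, -0.17, -1.69 and -1.30 in liver, and -0.64, -0.62, -0.53, -0.23 and -0.18 in blood. The organs were spread widely, with lung 1 and small intestine 1 the highest and liver 4 and small intestine 4 the lowest, and blood lay within their range. The means were -0.37 ± 1.13 in small intestine, -0.73 ± 0.82 in lung, -0.72 ± 0.76 in liver and -0.44 ± 0.22 in blood (SD, n = 5 each). In order of mean, small intestine was followed by blood, liver and lung, and no neighbours in that order differed beyond their spread. Small intestine differed from blood by 0.07 (95% interval -0.92 to 1.07, adjusted p = 0.907, limma). With the arrays labelled small intestine 5 and liver 5 left out the difference was 0.36 (adjusted p = 0.542, limma). Lung differed from blood by -0.29 (-1.28 to 0.71, adjusted p = 0.642, limma), lower on 4 of 5 slides, where a slide holds 1 array of each site. Lung 2 to 5, the arrays lower than blood on their slides, were not well above background, nor were blood 1 and 2. The lung difference thus rests largely on undetected signals. This difference was -0.64 without lung 1, -0.098 without lung 5 and -0.014 with the normexp background correction. The liver difference was -0.28 (-1.28 to 0.71, adjusted p = 0.998, limma), and -0.14 without those 2 arrays.

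Tgfbr2, the ligand-binding receptor chain, was well above background on 20 of 20 arrays and was the steadiest of the 4, with an SD of 0.40 over the 20 arrays. It stood at 1.64, 2.04, 1.68, 0.61 and 2.19 in small intestine 1 to 5, at 1.82, 1.61, 1.01, 2.25 and 1.66 in lung, at 1.95, 1.64, 1.60, 1.47 and 2.30 in liver, and at 1.64, 1.37, 1.97, 1.82 and 1.86 in blood. Small intestine 4 and lung 3 were the lowest, and all groups overlapped. The means were 1.63 ± 0.62 in small intestine, 1.67 ± 0.45 in lung, 1.79 ± 0.33 in liver and 1.73 ± 0.23 in blood (SD, n = 5 each). From the highest mean down, the order was liver, blood, lung and small intestine, with no neighbours apart beyond their spread. The difference from blood was -0.10 in small intestine (95% interval -0.69 to 0.50), -0.06 in lung (-0.66 to 0.53) and 0.06 in liver (-0.53 to 0.65), with adjusted p of 0.787, 0.870 and 0.998 (limma). The intervals leave room for a change of up to about 0.7 on the log2 scale in either direction. With the arrays labelled small intestine 5 and liver 5 left out the differences from blood were -0.24 in small intestine and -0.07 in liver. A second, dimmer Tgfbr2 probe was well above background on 9 of 20 arrays, with site means of -0.72 in small intestine, -1.51 in lung, -0.46 in liver and -1.42 in blood. It was above background on 1 of 5 lung and 1 of 5 blood arrays, so its site means give no order. Averaging the 2 probes turned the small intestine difference from blood to 0.30 (adjusted p = 0.520, limma).

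The signalling chain TGFBR1 could not be followed, because its probe was well above background on 0 of 20 arrays. Its signals ran from -3.73 to -0.98, whereas the lowest signal of a probe well above background ran from -1.87 to 0.03 between arrays. A level below those signals can therefore not be ordered between sites.

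Smad3, the receptor-activated signal carrier, was well above background on 17 of 20 arrays, including all liver and all blood arrays. Its values were 1.25, 0.23, 0.01, -1.12 and 1.24 in small intestine 1 to 5, 1.28, -1.14, 0.79, -2.31 and 0.29 in lung, 1.17, 0.77, 0.40, 1.48 and 1.69 in liver, and 0.43, 1.13, 0.93, 1.55 and 0.99 in blood. The 3 arrays not above background were lung 4, lung 2 and small intestine 4, which were also the lowest, and the sites overlapped. The means were 0.32 ± 0.99 in small intestine, -0.22 ± 1.48 in lung, 1.10 ± 0.52 in liver and 1.01 ± 0.40 in blood (SD, n = 5 each). Liver had the highest mean, then blood, small intestine and lung, and no neighbours in that order differed beyond their spread. Lung stood -1.22 ± 0.56 (SE) from blood (95% interval -2.39 to -0.06, adjusted p = 0.135, limma, lower on 4 of 5 slides). Its distance from liver was -1.32 ± 0.56 (SE, -2.48 to -0.16, adjusted p = 0.288, limma), but lower on only 3 of 5 slides. Small intestine differed from blood by -0.68 (-1.84 to 0.48, adjusted p = 0.337, limma) and by -0.91 with the arrays labelled small intestine 5 and liver 5 left out, but by -0.32 without small intestine 4 and by -0.31 relative to the median difference of all tested genes. Liver differed from blood by 0.10 (-1.06 to 1.26, adjusted p = 0.998, limma), and by -0.05 without those 2 arrays. Without lung 1 the lung difference from blood was -1.60 (adjusted p = 0.0556, limma), and leaving out the array with the lowest value, lung 4, gave the smallest difference of the single-array omissions, -0.70. Without lung 1, 893 of the 8056 tested genes passed between lung and blood, against 66 with all arrays. The lung value was -0.89 relative to the median of all genes and -0.74 with normexp. A second Smad3 probe was well above background on 0 of 20 arrays, and averaging it in gave -0.37 (adjusted p = 0.317, limma).

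The 3 lowest Smad3 arrays had CD8 T cell marker means of 3.43 (small intestine 4), 4.33 (lung 4) and 4.70 (lung 2). Small intestine 1 and 2 were also low in these markers, at 4.31 and 3.65, while their Smad3 stood at 1.25 and 0.23. Across the 20 arrays, Pearson's r between Smad3 and the mean of the 16 CD8 T cell markers was 0.53, and 0.47 after the site means were taken off. It was -0.58 with the alveolar macrophage markers and -0.62 with the lung epithelium markers, and -0.36 and -0.44 after the site means were taken off. With the remaining lists of other cells r ran from -0.57 (small intestinal epithelium, -0.44 within sites) to -0.09 (B and plasma cells), so it was not particular to lung cells. For Tgfbr2 the same values were 0.31 with the CD8 markers, 0.19 with the alveolar macrophage markers and 0.02 with the lung epithelium markers, and within sites 0.28, 0.45 and 0.15. These points share an array's scaling, and the correlations describe them without a test. With each array scaled on its CD8 T cell markers (a setting added once the data had been examined), the Smad3 difference from blood was -0.99 in lung (adjusted p = 0.245, limma) and -0.09 in small intestine (adjusted p = 0.920, limma). The part of other cells in these values was not tested.

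**Figure D2:**
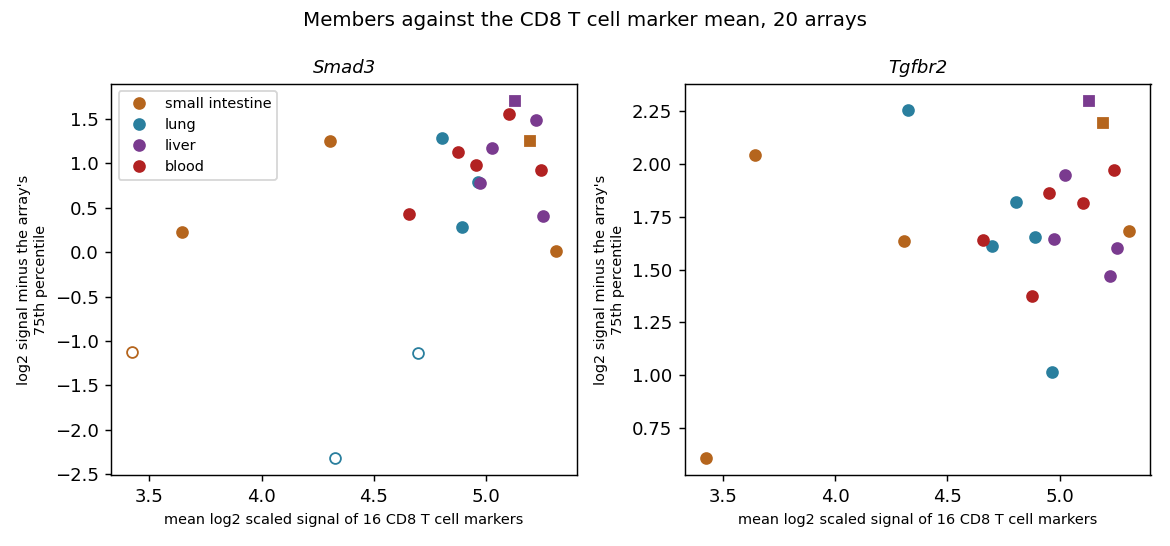
Smad3 (left) and Tgfbr2 (right) log2 signal minus the array's 75th percentile are plotted against the mean scaled log2 signal of 16 CD8 T cell markers, 1 point per array, with open symbols for arrays not well above background and squares for the arrays labelled small intestine 5 and liver 5. The 3 open Smad3 points, down to -2.31, are at marker means of 4.70 or below, and r over 20 arrays was 0.53 for Smad3 and 0.31 for Tgfbr2.

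Of the other signal carriers, Smad2 and Smad4, the partners of Smad3, were well above background on 20 and 19 arrays. Smad2 averaged 4.15 in small intestine and 3.60 in blood, a difference of 0.55 (adjusted p = 0.298, limma). Smad4 averaged 2.00 in small intestine and 2.32 in blood, a difference of -0.32 (adjusted p = 0.576, limma). In lung the 3 tested Smad genes had differences of 1.09 (Smad2), -1.22 (Smad3) and -0.89 (Smad4) from blood, and none passed the threshold.

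Smad7, the inhibitor that TGF-beta induces in many cells, was well above background on 4 of 20 arrays, 1 at each site. These were small intestine 5 (-0.65), lung 1 (-0.71), liver 5 (-0.54) and blood 4 (-1.11). On the other 16 arrays it did not reach that level, with a lowest signal of -3.75. It was not tested, and no site is set above another.

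Skil, a repressor of Smad-driven transcription that is also induced by TGF-beta, was well above background on 11 of 20 arrays, 4 of them in small intestine, 1 in lung, 4 in liver and 2 in blood. Its values were 0.06, 0.30, -0.11, -0.43 and -0.19 in small intestine 1 to 5, -0.99, -0.21, -2.12, -0.92 and -0.95 in lung, -0.41, -0.43, -2.46, -0.37 and 1.46 in liver, and -1.30, -0.89, -1.57, -1.14 and -0.52 in blood. The 5 small intestine values lay above all 5 blood values, whereas liver reached from the lowest to the highest of the 20. The highest was the array labelled liver 5, and the other liver arrays stood at -0.37 or below. Blood 1, 2 and 3 and small intestine 4 were not well above background, and on blood 1 the lowest signal that was stood at 0.027, above 3 of the small intestine values, so this order rests in part on undetected signals. Among all tested genes, 0.497% had 5 small intestine values all above the 5 blood values. The means were -0.07 ± 0.27 in small intestine, -1.04 ± 0.69 in lung, -0.44 ± 1.38 in liver and -1.08 ± 0.40 in blood (SD, n = 5 each). Small intestine had the highest mean, then liver, lung and blood, and of the neighbours none differed beyond its spread.

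Skil was 1.01 ± 0.48 (SE) higher in small intestine than in blood in mean, but did not pass the threshold (95% interval 0.01 to 2.01, adjusted p = 0.149, limma, higher on 5 of 5 slides). Relative to the median difference of all tested genes the value was 1.38. It was 1.04 with the arrays labelled small intestine 5 and liver 5 left out (adjusted p = 0.0658, limma) and 1.60 with scaling on CD8 T cell markers (adjusted p = 0.169, limma). With those 2 arrays left out 2220 of the 8056 tested genes passed, against 877 with all arrays. With normexp the Skil difference was 0.46 (adjusted p = 0.115, limma), and with the mean of its probes 0.57 (adjusted p = 0.168, limma). With the slide as a block the adjusted p was 0.0842 (limma). Small intestine also differed from lung by 0.97 (-0.04 to 1.97, adjusted p = 0.662, limma, higher on 5 of 5 slides). From liver it differed by 0.37 (-0.63 to 1.37, adjusted p = 0.653, limma). Without the arrays labelled small intestine 5 and liver 5 the difference from liver was 0.87 (adjusted p = 0.146, limma). Lung differed from blood by 0.04 (-0.96 to 1.05). Liver differed from blood by 0.64 (-0.36 to 1.64, adjusted p = 0.998, limma), and without liver 5 and small intestine 5 by 0.17. Skil had r = 0.60 with the B and plasma cell markers (3 tested of 12) and 0.57 with the Paneth cell markers over the 20 arrays, against -0.22 with the CD8 T cell markers. After the site means were taken off, these were 0.48, 0.43 and -0.12. With the remaining lists of other cells r within sites ran from 0.37 (small intestinal epithelium) to 0.57 (dendritic cells). It was thus not particular to B or Paneth cells. The part of other cells in the Skil values was not tested. A second Skil probe was well above background on 0 of 20 arrays.

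**Figure D3:**
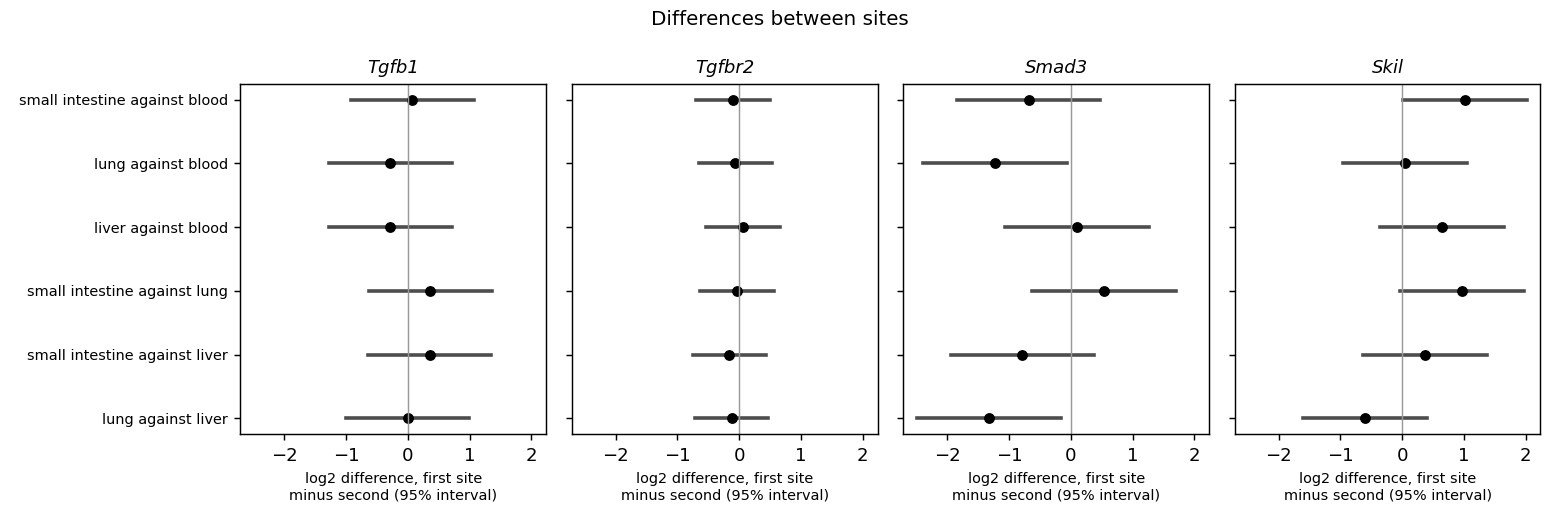
Points are log2 differences (first site minus second) of the 4 tested members in the 6 comparisons, and lines are 95% intervals from the limma fit over 20 arrays. The intervals of Smad3 for lung against blood and lung against liver, and of Skil for small intestine against blood, leave out 0, and those of Tgfbr2 are the narrowest, at -0.69 to 0.50 for small intestine against blood.

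Ski, the other repressor of this pair, was well above background on 0 of 20 arrays, with signals between -3.68 and -1.86. Rxra, the shared partner of the retinoic acid receptors, was also above it on 0 of 20, with signals between -3.62 and -2.03. Rara, the retinoic acid receptor alpha, passed on 1 array, small intestine 5 (-1.56), and lay between -3.64 and -2.04 on the other 19. The second probes of Rara and Rxra were well above background on 0 of 20 arrays. Neither retinoid receptor among the members was therefore measured at a level that could be compared, and an interval would not be meaningful. The retinoid receptor measured on the array was Rxrb, the only 1 of 6 RAR and RXR genes to be tested. It averaged 4.39 ± 0.82 in small intestine, 4.75 ± 0.23 in lung, 5.02 ± 0.38 in liver and 5.05 ± 0.34 in blood (SD, n = 5 each). Its small intestine difference from blood was -0.66 (adjusted p = 0.154, limma). It was -0.92 without small intestine 3 (adjusted p = 0.0346, limma), the only 1 of 31 other settings in which Rxrb passed the threshold. Without that array 1774 of the 8056 tested genes passed, against 877 with all arrays. With scaling on CD8 T cell markers the Rxrb difference was -0.07 (adjusted p = 0.866, limma).

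**Figure D4:**
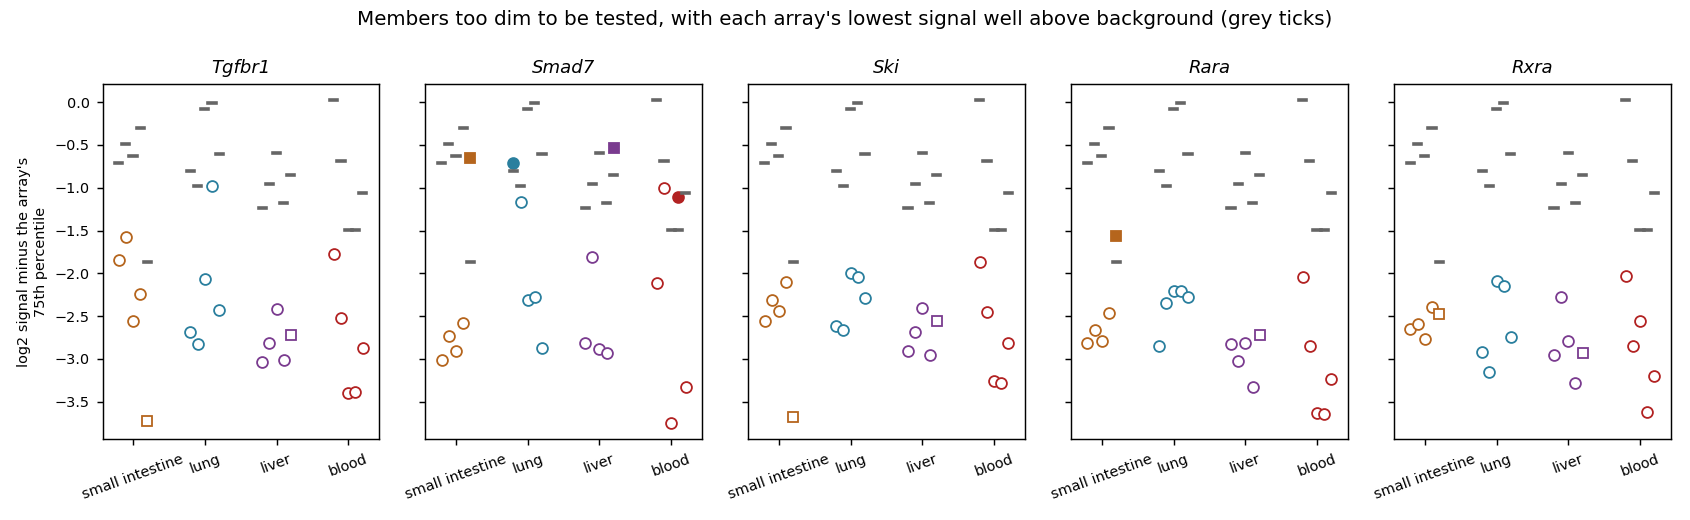
The 5 members that were not tested are shown by site, as log2 signal minus the array's 75th percentile, with open symbols for arrays not well above background, filled symbols for those above it, squares for the arrays labelled small intestine 5 and liver 5, and grey ticks for each array's lowest signal well above background. Smad7 has 4 filled symbols, Rara 1, and the other 3 have none.

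The 4 tested members varied largely apart from each other. Over the 20 arrays r was 0.35 between Tgfbr2 and Skil, 0.21 between Tgfb1 and Tgfbr2, and between -0.04 and 0.17 for the other 4 pairs. Among the 8055 other tested genes, those most like Smad3 over the 20 arrays were Fbh1 (r = 0.87), Isy1 (0.86) and Cnot1 (0.85). Those most like Tgfbr2 were Rsu1 (0.82), Macrod1 (0.79) and Prdx5 (0.76). Being the highest of 8055 values, these r are high by selection, and they were not tested. The r with the CD8 T cell markers was 0.49 for Fbh1, 0.72 for Isy1 and 0.74 for Cnot1. It was 0.62 for Rsu1, 0.27 for Macrod1 and 0.45 for Prdx5.

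The wider pathways were described over 10 lists of 116 genes in all, of which 115 had a probe and 54 were tested. Between small intestine and blood, 2 of the 54 rose and 5 fell, 13.0% together, against 10.9% of all genes (0.931% higher and 9.96% lower). Their median difference was 0.14, against -0.37 over all tested genes. All 7 calls were lost with scaling on probes above background on all 20 arrays (adjusted p 0.0688 to 0.0951, limma) and with scaling on CD8 T cell markers (0.0528 to 0.236), and 6 of the 7 without a filter on dim probes and in the pairwise fit. Quantile normalization, normexp and the mean of probes each ended 2 of the 7. With the slide as a block 0 were lost (adjusted p 0.0233 to 0.0394, limma). Leaving out the arrays labelled small intestine 5 and liver 5 also ended 0 of the 7 (adjusted p 0.00123 to 0.0185, limma). Between lung and blood 0 of the 54 passed (limma, 0.819% of all genes), with 17 at an unadjusted p under 0.05, where 34.5% of all genes were, and a median of 0.03 against -0.33. None passed in the other 4 comparisons, where 1 (liver against blood) to 10 (small intestine against liver) were at an unadjusted p under 0.05, against 2.68% and 22.1% of all genes. With the arrays labelled small intestine 5 and liver 5 left out, 5 rose and 7 fell in small intestine against blood (22.2%, against 27.6% of all genes). Between lung and blood, with those 2 arrays left out, 1 rose, Dhrs3 (1.85% against 2.33%). Between small intestine and liver, Ccr9 and Tgfbi then rose and Itga4, Klf10, S1pr1 and Crebbp fell (11.1% against 17.4% of all genes), and between small intestine and lung Itga4 and Klf10 fell (3.70% against 2.37%). Tgfbi and Crebbp are named because they passed there, after their values were seen.

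The genes induced by TGF-beta (8 tested of 16) gave 1 rise in small intestine, Cdkn1a. Cdkn1a encodes the cell cycle inhibitor p21. It averaged 1.53 ± 1.95 in small intestine and -0.81 ± 0.60 in blood, a difference of 2.33 (adjusted p = 0.0480, limma), was well above background on 4 of 5 small intestine and 2 of 5 blood arrays, and stood at 3.45 and 3.77 on small intestine 1 and 2, against 0.58 or below on the other 3. Leaving out any of 15 of the 20 arrays ended this call, among them small intestine 1, 2 and 4 and every blood array, with differences between 1.77 and 2.57 (adjusted p up to 0.149, limma). So did 8 of 10 other settings, with a lowest difference of 1.27. With all 20 arrays, Cdkn1a differed from blood by 2.49 in lung (adjusted p = 0.102, limma, higher on 4 of 5 slides). The liver difference was 0.72 (adjusted p = 0.998, limma), so a higher mean than in blood was not particular to small intestine. Its r with the monocyte and macrophage markers (5 tested of 16) was 0.92 over the 20 arrays. Their part in it was not tested.

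Of the other induced genes, Klf10, an early TGF-beta response gene, had a small intestine difference of -1.61 from blood (adjusted p = 0.0660, limma) and Tgif1, a Smad corepressor, one of 0.62 (adjusted p = 0.292, limma). With the arrays labelled small intestine 5 and liver 5 left out, Klf10 fell by 2.19 and passed the threshold (adjusted p = 0.00142, limma), as did 27.6% of all genes. It also passed without small intestine 5, liver 5 or blood 1 alone, where 2132, 1052 and 687 of the 8056 tested genes passed. Scaling on CD8 T cell markers gave -1.02 (adjusted p = 0.197, limma). With scaling on probes above background on all 20 arrays the adjusted p was 0.132 (limma). Pmepa1, a feedback inhibitor, was well above background on 0 of 20 arrays, and Itgae, the alpha chain of CD103, had no named probe.

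The genes that TGF-beta represses in T cells (10 tested of 15) held 2 falls in small intestine, S1pr1 and Prf1. This was 20% of the 10, where 9.96% of all tested genes fell. The median difference of the 10 was 0.0018, against -0.37 over all tested genes, so the list as a whole was not lower. S1pr1 encodes the sphingosine-1-phosphate receptor that lets T cells leave tissue, and Prf1 encodes perforin. S1pr1 stood at 0.70, -0.48, 2.20, -2.43 and 1.64 in small intestine, against 2.43, 2.86, 3.36, 4.01 and 2.44 in blood. The 2 sites did not overlap, as for 7.73% of all tested genes in this direction, and the difference was -2.70 (adjusted p = 0.0288, limma). Prf1 averaged -1.41 ± 1.05 in small intestine and 0.66 ± 0.81 in blood (SD, n = 5 each), with a difference of -2.07 (adjusted p = 0.0307, limma). It was well above background on 1 of 5 small intestine arrays and 5 of 5 blood arrays, and S1pr1 on 3 and 5, so the size of both falls is uncertain. Both calls were lost without small intestine 2, small intestine 4, blood 2, blood 3, blood 4 or blood 5, and that of Prf1 also without small intestine 1. The differences then ran from -2.84 to -2.01 for S1pr1 and from -2.31 to -1.79 for Prf1. With scaling on CD8 T cell markers, the difference was -2.11 for S1pr1 (adjusted p = 0.0801, limma) and -1.48 for Prf1 (adjusted p = 0.122, limma). Without that scaling, lung differed from blood by -1.43 in S1pr1 (adjusted p = 0.155, limma) and by -1.70 in Prf1 (adjusted p = 0.121, limma). Both were lower in lung on 5 of 5 slides. The liver differences were -1.07 and -1.11 (adjusted p = 0.998 for each, limma), so lower means than in blood were not particular to small intestine. Both genes had a positive r with the CD8 T cell markers, 0.79 for S1pr1 and 0.67 for Prf1.

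On the retinoid side, 9 of 10 receptor cofactors, 4 of 19 genes of retinoid synthesis, transport and breakdown, and 5 of 13 retinoic acid induced genes were tested. Dhrs3, which reduces retinal to retinol and is itself induced by retinoic acid, rose in small intestine. It stood at 2.77, 3.28, 2.43, 0.75 and 2.26 there, against 0.14, 0.35, 0.13, -0.89 and -0.57 in blood. The 2 sites did not overlap, as for 0.497% of all tested genes in this direction, and the difference was 2.46 (adjusted p = 0.0399, limma, higher on 5 of 5 slides). In lung the difference was 3.02 (adjusted p = 0.0594, limma), with lung 3 at 0.11 and the other 4 arrays at 2.66 or more. Without liver 5 and small intestine 5 the small intestine difference was 2.47 (adjusted p = 0.0185, limma). Leaving out small intestine 1, small intestine 2, liver 1 or any blood array ended the small intestine call (differences 2.22 to 2.59, adjusted p up to 0.114, limma). It was also lost in 4 of 10 other settings, among them scaling on CD8 T cell markers (3.05, adjusted p = 0.0801, limma). Dhrs3 had r = 0.82 with the dendritic cell markers (5 tested of 12) and 0.77 with the alveolar macrophage markers. The part of these cells was not tested.

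Itga4, the alpha chain of the gut-homing integrin alpha4beta7 and a gene that retinoic acid induces, fell in small intestine. It stood at 3.81, 2.92, 4.44, 1.94 and 5.07 there, against 5.33, 5.50, 5.28, 5.41 and 5.48 in blood. It did not overlap, as for 7.73% of all tested genes in this direction, and the difference was -1.77 (adjusted p = 0.0202, limma). It had r = 0.83 with the CD8 T cell markers and -0.89 with the Paneth cell markers. With scaling on the CD8 markers the difference was -1.17 (adjusted p = 0.0528, limma), and it was -1.59 without small intestine 2 (adjusted p = 0.0669, limma) and -1.75 without blood 5 (adjusted p = 0.0529, limma). Its partner chain Itgb7 differed by -0.37 (adjusted p = 0.312, limma), and Ccr9, the gut-homing chemokine receptor, by 1.20 (adjusted p = 0.278, limma). Ccr9 was well above background on 5 of 5 small intestine arrays, 1 lung, 2 liver and 3 blood arrays.

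Ncoa1 and Fabp5, also on the retinoid side, fell in small intestine. Ncoa1, a nuclear receptor coactivator, averaged 0.64 ± 0.83 in small intestine and 2.20 ± 0.45 in blood (difference -1.55, adjusted p = 0.0333, limma). Fabp5, a carrier that can deliver retinoic acid to a nuclear receptor, averaged 2.49 ± 0.88 in small intestine and 3.61 ± 0.24 in blood (difference -1.12, adjusted p = 0.0334, limma). Without small intestine 2, small intestine 4 or any of several blood arrays (all 5 for Ncoa1, and blood 2, 3 and 5 for Fabp5) the calls were lost. The differences then ran from -1.72 to -1.23 for Ncoa1 and from -1.15 to -0.74 for Fabp5. Fabp5 was at 0.96 on small intestine 4 and between 2.60 and 3.15 on the other 4, and without that array its difference was -0.74 (adjusted p = 0.0632, limma). With scaling on CD8 T cell markers the differences were -0.96 for Ncoa1 (adjusted p = 0.169, limma) and -0.53 for Fabp5 (adjusted p = 0.236, limma). Without that scaling, lung differed from blood by -0.94 in Ncoa1 (adjusted p = 0.139, limma) and by -0.21 in Fabp5 (adjusted p = 0.613, limma). The liver differences were -0.60 and -0.33 (adjusted p = 0.998 for each, limma). Over the 20 arrays, r with the CD8 markers was 0.60 for Ncoa1 and 0.62 for Fabp5, and with the Paneth cell markers -0.69 and -0.67. The part of other cells was not tested. The corepressor Ncor1 had a difference of -1.18 (adjusted p = 0.248, limma), and Aldh1a2, which makes retinoic acid, was well above background on 0 of 20 arrays.

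**Figure D5:**
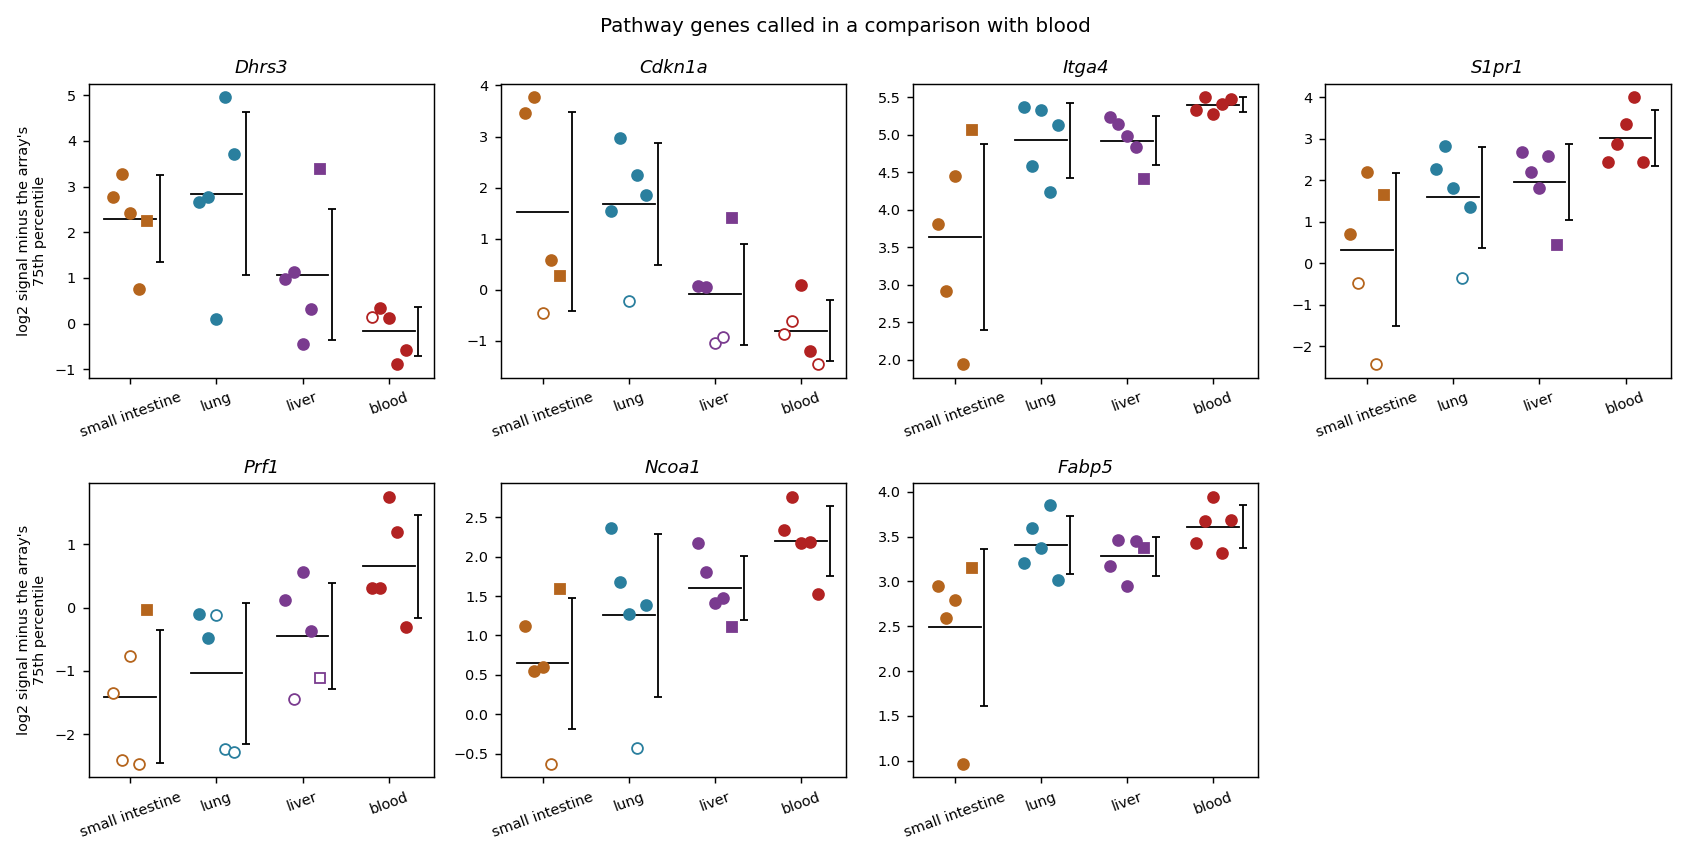
The 7 pathway genes called in small intestine against blood are plotted by site as log2 signal minus the array's 75th percentile, with 5 arrays per site, open symbols for arrays not well above background, squares for the arrays labelled small intestine 5 and liver 5, and lines and bars for the mean and SD. Dhrs3, S1pr1, Itga4 and Fabp5 do not overlap between small intestine and blood, and 4 of 5 Prf1 symbols in small intestine are open. Of all tested genes, 0.497% lay higher and 7.73% lower in small intestine without overlap.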

How the data were processed

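Microarray signals of 20 arrays were used, 5 per site. Per the file headers, Feature Extraction 11.0.1.1 made the deposited processed signal, which is a linear intensity after background subtraction, and the spot flags. Version 10.7 and Partek are named in the submitters' processing notes. The value table the authors deposited holds log2 values and matches quantile-normalized log2 processed signal (median absolute difference 0.000129, column median 8.05) and served as an alternative. From the intensity, log2 values minus each array's 75th percentile (772 to 2603 as signal) were taken after 24 non-uniform spots were removed. Per array, 22.6% to 38.7% of probes lay well above background. Of 39429 probes, 27508 had 1 RefSeq symbol (GRCm38.p6) and 11921 none; the brightest probe per gene was used. limma 3.58.1 (R 4.3.3) fitted 1 coefficient per site over 20 arrays, two-sided, with Benjamini-Hochberg adjustment per comparison. Each slide held 1 array of each site, with 1 replicate number.

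Named were all 9 members, up to 4 called genes per direction, list and comparison with blood, a fixed set (Itgae, Klf10, Pmepa1, Tgif1, Smad2, Smad4, Ccr9, Itga4, Itgb7, Rxrb, Ncor1 and Aldh1a2), and the 3 genes most like each of up to 3 members measured on at least 16 arrays. The members and lists were chosen with earlier results of these data known. A gene of the lists is not reported here and was left out of their counts. Normexp used median signals, since the files used here hold no mean signal. Other alternatives were scaling on 6836 probes above background everywhere, quantile normalization, other filters, the mean of probes, a block, pairwise fits and each array left out. The procedure was tested on simulated data. Figures were drawn with matplotlib.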

Additional observations from a re-analysis of the deposited data

Results flagged for a closer look

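In 11 of 104 groups of 5 arrays, 1 array stood apart from the other 4 by Dixon's criterion for 5 values (gap over range above 0.71). Independent normal values would be flagged in about 1 group in 20. These groups share the same 20 arrays and include undetected probes, so that rate is no measure of an excess here. Among the members, Tgfb1 was 0.68 on lung 1, against -1.48 to -0.88 on the other lung arrays. The array labelled small intestine 5 stood apart for Smad7 (-0.65, the others -3.01 to -2.58), Ski (-3.68, the others -2.56 to -2.10) and Rara (-1.56, the others -2.81 to -2.46). Rara was -2.84 on lung 1, the others -2.35 to -2.20. Ski on all arrays, and Smad7 and Rara on most, are not well above background.

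Among the pathway genes, Klf10 was 0.60 on the array labelled liver 5 (the others 2.32 to 2.75). On small intestine 4 Fabp5 was 0.96 (the others 2.60 to 3.15) and Smad2 was 5.02 (the others 3.77 to 4.12). On liver 3 Tgif1 was 2.67 (the others 4.53 to 5.12) and Pmepa1 was -2.06 (the others -3.36 to -3.00). Aldh1a2 was -3.95 on small intestine 5 (the others -2.76 to -2.41).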

How the results depend on the processing

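The count of members past the threshold was 0 under each of 11 other settings and 20 single-array omissions, in the comparisons each could give (the pairwise fit gives no F-test). The smallest adjusted p of a member was 0.0550 (limma, Skil, small intestine against blood, pairwise fit). The setting limited to genes above background on all 20 arrays tested only 1 member, Tgfbr2. There, with normexp and in the pairwise fit, 0 of all genes were called in most comparisons, so 0 members tells little. Calls of all genes moved far more: 877 between small intestine and blood became 0 without small intestine 2, 2132 without small intestine 5, 19 with scaling on probes above background everywhere and 25 with scaling on CD8 T cell markers, which was added after seeing the data. Under these, 4 and 16 of the calls were higher, against 75 of 877. Same-numbered arrays did not qualify as pairs (18 of 30 pairs had r above 0.1, lowest -0.374; 7 of 20 arrays were closest to their own number); the replicate block called 0 members and 1096 genes between small intestine and blood.

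Differences from blood near 0 changed sign, none of them called. With quantile normalization, the deposited table and CD8 marker scaling, Tgfbr2 became 0.20, 0.20 and 0.49 in small intestine (0.30 with the mean of probes) and 0.23, 0.23 and 0.17 in lung, and Smad4 in small intestine became 0.00015, 0.00076 and 0.27. Skil in lung became -0.11, -0.22 and -0.20 with scaling on detected probes, quantile normalization and the deposited table. In liver, scaling on detected probes, normexp, the omission of liver 5 and small intestine 5, and CD8 scaling gave -0.12, -0.059, -0.066 and -0.095 for Tgfbr2 and -0.084, -0.028, -0.049 and -0.056 for Smad3. Itgb7 in small intestine was 0.22 with CD8 scaling and Ncor1 0.12 with the mean of probes. Leaving out single arrays gave -0.19 to 0.40 for Tgfb1 in small intestine, -0.24 to 0.16 for Tgfbr2 in small intestine, -0.21 to 0.10 in lung and -0.066 to 0.14 in liver, -0.16 to 0.31 for Skil in lung and -0.049 to 0.27 for Smad3 in liver. The cause was not tested.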
